A study of Mus musculus with 12 samples.

Results

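The 10 genes described here are expressed in the pigment epithelium behind the retina or in pigment cells: Rpe65, Lrat, Ttr, Best1 and Rgr, and the pigment genes Mlana, Tyr, Tyrp1, Dct and Pmel. They were found by Entrez gene ID among the 27179 IDs counted in 12 RNA sequencing libraries of whole mouse retina. All 10 were present, and all 10 passed the filter on low counts that left 16475 genes for testing. The libraries fell into 4 groups of 3. These were retinas at 12 months from mice with the genotype given as Glia-ABCA1KO, a glia-specific deletion of the cholesterol transporter ABCA1 (KO below), control retinas at 12 months, KO retinas at 3 months and control retinas at 3 months. Ages are written with an m, read here as months. The labels name no Cre driver, strain or sex and do not say what the controls carry, and the extraction protocol speaks of Astro-KO mice. Nothing in the labels ties each library to an animal of its own, and the p-values below therefore speak only of library-to-library spread, part of which may be technical.

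The retinal pigment epithelium is a single layer of cells that lies against the photoreceptor outer segments. It turns all-trans retinol back into the 11-cis form that opsins need, takes up shed outer segments and holds melanosomes. When a retina is dissected, this layer can stay with the eyecup or adhere to the retina. Melanin-making enzymes are shared by the pigment epithelium and by the melanocytes of the choroid and iris, whereas Rpe65 marks the epithelium.

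Library totals ran from 29027099 to 30438026 counts, and levels are given as CPM, the count of a gene scaled to the size of its library with TMM factors. Abca1 itself averaged 36.3 ± 7.90 CPM in 12-month KO and 30.7 ± 2.66 CPM in 12-month control libraries (SD, n = 3 each). At 3 months it averaged 26.3 ± 1.78 CPM in KO and 22.7 ± 3.34 CPM in control libraries, and edgeR called neither difference (adjusted p = 0.65 and 0.70). Which part of Abca1 was deleted is not known here, and its total count therefore does not check the labels. Replicate 2 of the 3-month controls stood apart, with 4360 CPM summed over 11 lens genes against 8.08 to 167 CPM in the other 11 libraries. Replicates 1 and 3 of these controls also lay above every library of the other groups, at 40.6 CPM or more against at most 30.1 CPM. All 3 of the 3-month controls held 79.0 to 90.8 CPM over 11 skeletal muscle genes, against 6.44 to 12.0 CPM elsewhere. The part of these tissues in the values below was not tested. Several fold changes and sums that use the 3-month controls are therefore also given without replicate 2. The correlations and rankings below were not repeated with only that library left out. Leaving it out removes neither the muscle counts, which all 3 of these controls held, nor the raised lens counts of replicates 1 and 3.

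Promoter sequences are shown for the 3 melanin enzymes among the 10 genes, and for Rpe65, the defining gene of the epithelium, for contrast. RefSeq's GRCm38.p6 table gave 300-base windows, from 250 bases before to 50 after the start set in that table, for 7 of the 10 genes. Ttr, Mlana and Pmel were not matched. For Tyr and Dct that start is the start of the gene as listed. For Rpe65 and Tyrp1 it lies inside the listed gene span, which begins at 159599075 and 80834123. Offsets below count from the start set in that table. Windows were searched on both strands for TCATGTG, the M-box known from pigment genes, its inner E-box CATGTG, the E-box CACGTG, and TAATCC, a core recognised by OTX and CRX homeodomain proteins. Capitals mark any of these motifs on either strand, and each TCATGTG also holds a CATGTG. The windows lie at chr7:87493463-87493762 for Tyr (minus strand), chr4:80833963-80834262 for Tyrp1 (plus strand), chr14:118052197-118052496 for Dct (minus strand) and chr3:159598931-159599230 for Rpe65 (plus strand), and each is written 5′ to 3′ along its gene.
Tyr: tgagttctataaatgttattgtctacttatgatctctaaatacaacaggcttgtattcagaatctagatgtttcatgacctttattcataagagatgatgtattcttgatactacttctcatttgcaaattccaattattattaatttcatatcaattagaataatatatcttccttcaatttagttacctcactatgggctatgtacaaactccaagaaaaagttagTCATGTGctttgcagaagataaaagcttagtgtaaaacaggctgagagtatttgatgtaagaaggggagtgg
Tyrp1: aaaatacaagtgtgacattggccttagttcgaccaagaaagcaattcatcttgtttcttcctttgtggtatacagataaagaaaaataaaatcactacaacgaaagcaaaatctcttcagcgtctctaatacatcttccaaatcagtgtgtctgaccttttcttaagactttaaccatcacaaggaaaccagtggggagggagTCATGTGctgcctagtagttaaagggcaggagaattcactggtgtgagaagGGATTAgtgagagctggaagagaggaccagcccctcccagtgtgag
Dct: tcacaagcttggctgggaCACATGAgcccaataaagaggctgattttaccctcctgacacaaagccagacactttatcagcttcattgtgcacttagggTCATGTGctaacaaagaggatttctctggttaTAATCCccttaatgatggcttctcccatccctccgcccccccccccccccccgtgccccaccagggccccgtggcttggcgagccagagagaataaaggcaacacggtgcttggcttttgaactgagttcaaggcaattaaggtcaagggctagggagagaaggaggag
Rpe65: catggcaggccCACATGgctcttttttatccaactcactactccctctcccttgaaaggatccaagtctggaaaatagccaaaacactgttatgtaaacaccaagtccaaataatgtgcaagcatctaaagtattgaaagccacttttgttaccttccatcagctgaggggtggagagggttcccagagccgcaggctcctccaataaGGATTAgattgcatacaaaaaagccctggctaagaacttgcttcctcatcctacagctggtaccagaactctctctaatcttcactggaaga
TCATGTG stood 22 bases before the start of Tyr (offset -22), at offset -47 in Tyrp1, and at offsets -151 and, on the opposite strand, -232 in Dct. It was found in 3 of the 7 windows, against 3.77% of all 32851 windows of this length, and not in those of Rpe65, Lrat, Best1 or Rgr. CATGTG was found in 5 of the 7 windows against 14.15% of all windows, TAATCC in 5 of 7 against 7.06%, and CACGTG in 0 of 7 against 7.15%. The CATGTG in Rpe65 read on the opposite strand at offset -239, and its TAATCC, likewise on the opposite strand, at offset -42. That TAATCC and the TCATGTG of Tyrp1 lie inside the listed gene spans. A match of letters is a description and does not show that a factor binds there.

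Judged per length, the 10 genes were low against the neural retina. Rpe65 averaged 5.99 CPM per kilobase of GENCODE exon over the 12 libraries. On the same scale the interphotoreceptor retinoid carrier Rbp3 stood 196-fold above Rpe65, the Müller glial enzyme Glul 125-fold, and Rlbp1, a retinal carrier of both pigment epithelium and Müller glia, 23.3-fold. Among the 10, the order of mean levels per kilobase was Ttr at 38.6, Rgr at 10.5, Rpe65 at 5.99, Dct at 2.21, Pmel at 1.45, Lrat at 1.14, Mlana at 0.894, Tyrp1 at 0.746, Best1 at 0.215 and Tyr at 0.101 CPM per kilobase. Rgr made up 37.3% and Ttr 34.1% of the summed CPM of the 10 genes, so a sum over them is mostly those genes, while Best1 with 7 to 29 counts a library and Tyr with 8 to 35 rested on few reads.

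**Figure D1:**
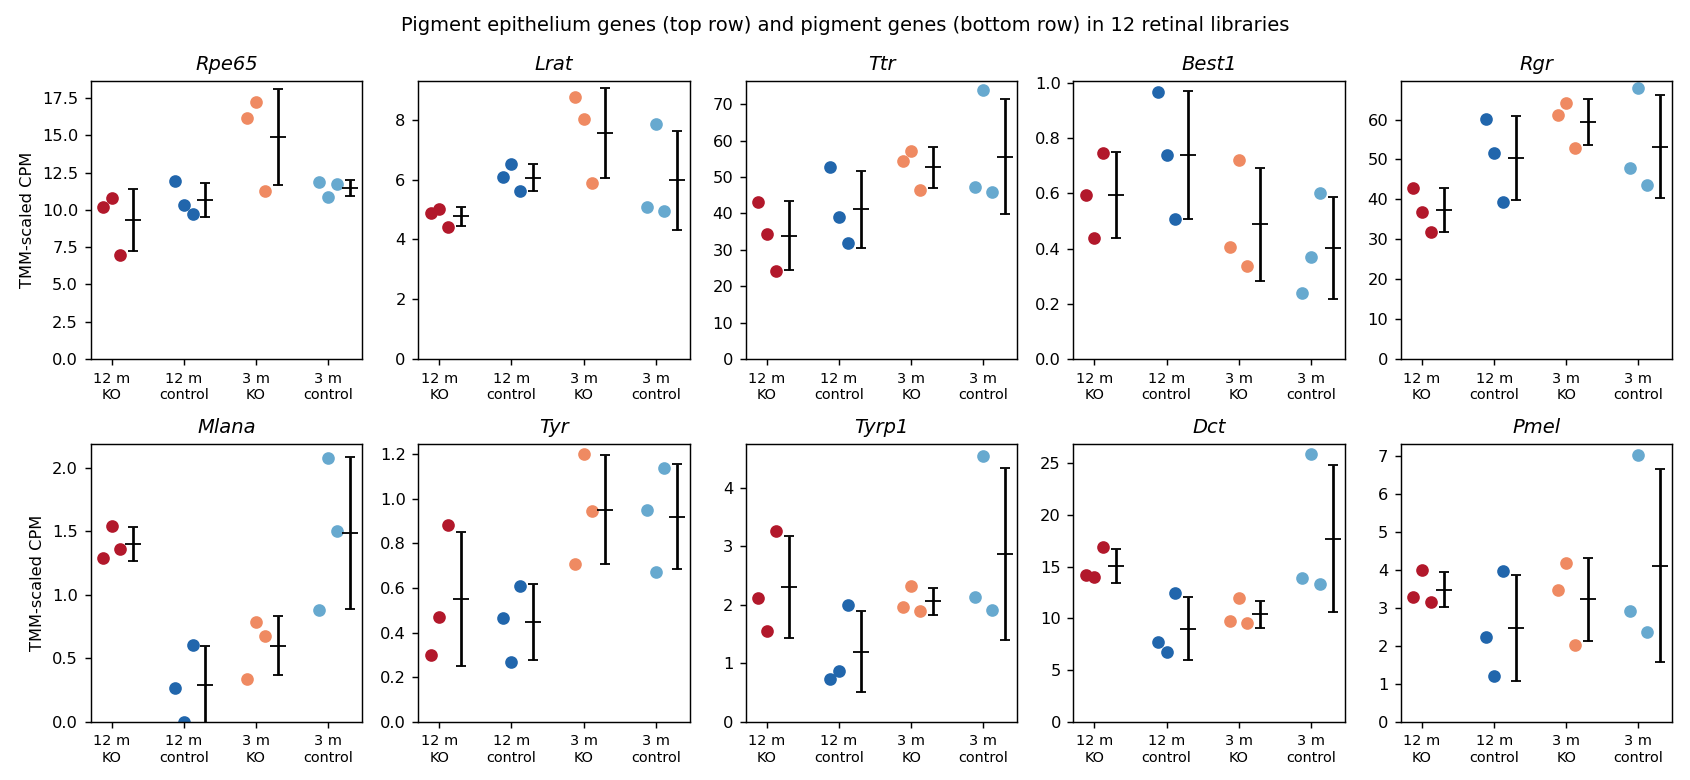
Level of each of the 10 genes in TMM-scaled CPM (vertical axes, linear from 0), with 1 point per library in the order 12-month KO, 12-month control, 3-month KO and 3-month control, and the mean and SD of the 3 libraries beside them (an SD bar that would pass below 0 ends at the axis). Rpe65, Lrat, Ttr and Rgr in 12-month KO libraries lie below every 3-month KO library, and replicate 2 of the 3-month controls is the highest library for Mlana, Tyrp1, Dct and Pmel.

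The retinoid genes of the epithelium were lowest at 12 months in KO retinas. Rpe65, the isomerase that makes 11-cis retinol (chr3:159599075-159625307), had 10.2, 10.8 and 6.96 CPM in 12-month KO libraries, against 11.9, 10.3 and 9.75 CPM in 12-month controls. At 3 months it had 16.2, 17.2 and 11.3 CPM in KO libraries, against 11.9, 10.9 and 11.7 CPM in controls. The 3-month KO group was the highest on average and the 12-month KO group the lowest; those groups did not overlap, while each overlapped its own controls.

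Lrat, the acyltransferase that esterifies retinol and so supplies the substrate of RPE65, had 4.89, 5.01 and 4.41 CPM in 12-month KO libraries, against 6.07, 6.52 and 5.60 CPM in 12-month controls. All 3 KO libraries lay below all 3 controls. In the younger retinas it had 8.77, 8.02 and 5.88 CPM in KO libraries, against 5.10, 7.87 and 4.95 CPM in controls, and these groups overlapped. Rgr, a retinaldehyde-binding opsin of pigment epithelium and Müller glia, had 42.9, 36.9 and 31.9 CPM in 12-month KO libraries, against 60.2, 51.7 and 39.4 CPM in 12-month controls. Its 3-month values were 61.0, 64.3 and 52.9 CPM in KO libraries, against 48.0, 67.8 and 43.7 CPM in controls. Rgr overlapped between KO and control at each age, but every 12-month KO library lay below every 3-month KO library.

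Ttr, the secreted carrier of thyroxine and of retinol-binding protein (chromosome 18), had 43.1, 34.3 and 24.3 CPM in 12-month KO libraries, against 52.6, 38.9 and 31.8 CPM in 12-month controls. At 3 months its values were 54.3, 57.2 and 46.4 CPM in KO libraries, against 47.1, 73.9 and 45.7 CPM in controls. The highest value of all was replicate 2 of the 3-month controls, the library with the most lens transcripts. Best1, a calcium-activated chloride channel of the epithelium, lay between 0.238 and 0.968 CPM in all 12 libraries, and its groups overlapped in every comparison.

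The pigment genes followed another order. Mlana, a small melanosome membrane protein (chr19:29697541-29708447), had 39, 46 and 40 counts in 12-month KO libraries, against 8, 0 and 18 counts in 12-month controls. The control library at 0 allows a level of up to 0.101 CPM, the level of 3 counts. Like the other counting limits here, this covers counting error only and takes each count as independent. At 3 months Mlana had 10, 23 and 20 counts in KO libraries, against 26, 62 and 45 counts in controls. At 12 months all KO libraries lay above all controls, and at 3 months all KO libraries lay below all controls.

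Dct, the dopachrome tautomerase of melanin synthesis, showed the same arrangement at higher counts. It had 430, 417 and 499 counts in 12-month KO libraries, against 232, 202 and 370 counts in 12-month controls. Its 3-month counts were 288, 348 and 283 in KO libraries, against 410, 773 and 399 in controls. Neither pair of groups overlapped, and the 773 counts came from replicate 2.

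Tyrp1, a tyrosinase-related enzyme of melanin synthesis, had 2.11, 1.55 and 3.26 CPM in 12-month KO libraries, against 0.734, 0.874 and 1.99 CPM in 12-month controls. In 3-month retinas it had 1.96, 2.33 and 1.89 CPM in KO libraries, against 2.14, 4.56 and 1.91 CPM in controls. Tyrp1 overlapped at both ages. At 12 months replicate 3 of the controls lay above one KO library, and at 3 months KO replicates 1 and 2 lay above replicate 3 of the controls. Pmel, whose protein forms the fibrils of the melanosome, had 100, 119 and 93 counts in 12-month KO libraries, against 67, 36 and 118 counts in 12-month controls. At 3 months Pmel had 103, 122 and 60 counts in KO libraries, against 86, 210 and 71 counts in controls, and it overlapped at each age. Tyr, the tyrosinase that starts melanin synthesis, averaged 0.550 ± 0.301 CPM in 12-month KO and 0.448 ± 0.170 CPM in 12-month control libraries, and 0.952 ± 0.246 CPM in 3-month KO and 0.920 ± 0.235 CPM in 3-month control libraries (SD, n = 3 each). Tyr likewise overlapped between KO and control at each age.

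At 12 months no difference between KO and control reached an adjusted p below 0.05 by edgeR's quasi-likelihood test, in any of the 10 genes (0 of 10, against 0.212% of all tested genes, 0.127% higher and 0.085% lower). At an unadjusted p below 0.05 there were 4 of the 10 (Rgr, Mlana, Tyrp1 and Dct), against 8.7% of all genes, and DESeq2 called 1, Mlana (adjusted p = 0.025). The 5 epithelial genes all had negative log2 fold changes, with a median of -0.31, and the 5 pigment genes all had positive ones, with a median of 0.74, while the median over all genes was 0.00 to 2 decimals. The largest was Mlana, at 2.25 ± 0.60 on the log2 scale (SE; adjusted p = 0.19), and Dct was at 0.74 ± 0.27 (adjusted p = 0.46). Rgr was at -0.44 ± 0.19 (adjusted p = 0.55) and Lrat at -0.35 ± 0.19 (adjusted p = 0.62). Groups did not overlap for 2 genes higher in KO, Mlana and Dct, against 8.3% of all genes, and for 1 gene lower in KO, Lrat, against 8.36%. Without replicate 3 of the 12-month controls, the control highest in pigment genes, Mlana was at 3.34 and passed the threshold (adjusted p = 0.048). Without replicate 2, the control library at 0 counts, it was at 1.67 (adjusted p = 0.44), and over all libraries left out in turn the adjusted p reached 0.50. Replicate 1 of those controls was low and replicate 3 of the 12-month KO was high in genes of the ciliary epithelium as well, with mean log2 deviations of -0.71 and 0.42 over 4 genes, none at 0. Replicate 2 of those controls, the lowest in pigment genes, was at 0.05. The part of the ciliary epithelium in the pigment gene values was not tested.

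At 3 months the signs were mostly turned round. No gene of the 10 was called by edgeR, against 0.225% of all genes (0.0668% higher and 0.158% lower). There were 3 that had an unadjusted p below 0.05 (Rpe65, Mlana and Dct), against 7.5% of all genes, and DESeq2 called 0. Of the epithelial genes 4 of 5 were higher in KO, with a median log2 fold change of 0.27, and of the pigment genes 4 of 5 were lower, with a median of -0.48. Rpe65 was at 0.38 ± 0.16 (adjusted p = 0.66), Mlana at -1.31 ± 0.55 (adjusted p = 0.65) and Dct at -0.77 ± 0.26 (adjusted p = 0.63). Mlana and Dct were the 2 genes whose KO libraries all lay below the controls, against 7.65% of all genes, and 0 lay above, against 7.98%. Without replicate 2 of the controls, Mlana was at -0.99, Dct at -0.39, Tyrp1 at 0.026, Pmel at 0.29 and Tyr at -0.13. All 5 epithelial genes were then positive: Rpe65 at 0.34, Lrat at 0.59, Ttr at 0.18, Best1 at 0.21 and Rgr at 0.37. None of these genes was called.

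**Figure D2:**
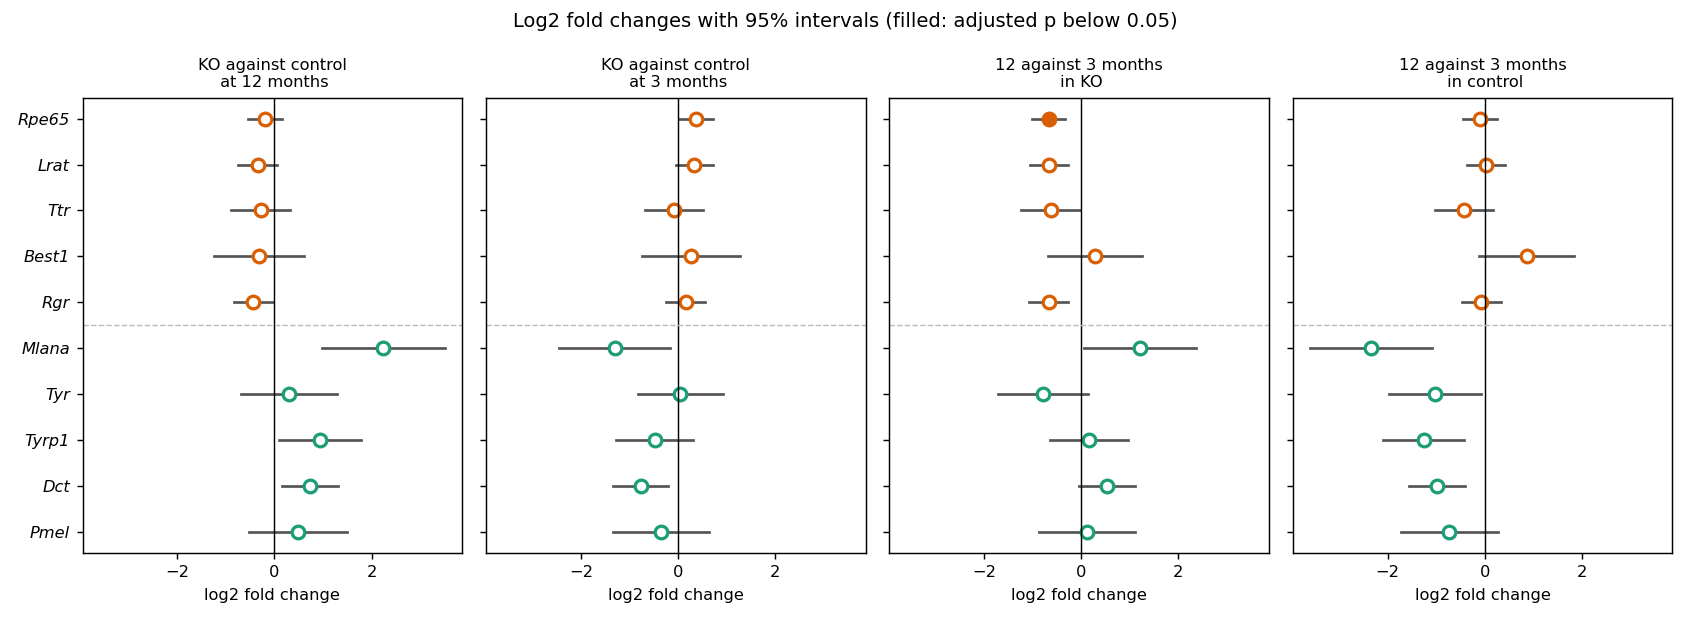
Log2 fold changes (horizontal axes) of the 10 genes with 95% intervals from the edgeR fit to all 12 libraries, for KO against control at 12 and at 3 months and for 12 against 3 months in KO and in control retinas; orange outlines mark epithelial and green outlines pigment genes, and a filled point marks an adjusted p below 0.05. The only filled point is Rpe65 at -0.68 for 12 against 3 months in KO, and at 12 months all 5 epithelial genes lie left of 0 and all 5 pigment genes right of it.

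The change of the KO difference between ages was tested directly, as the 12-month log2 fold change minus the 3-month one. No gene of the 10 was called by edgeR, against 0.127% of all genes (0.109% higher and 0.0182% lower). There were 6 that had an unadjusted p below 0.05, against 4.33% of all genes, and DESeq2 called Mlana (adjusted p = 0.0087). By edgeR the difference was 3.55 ± 0.81 for Mlana (adjusted p = 0.21) and 1.51 ± 0.37 for Dct (adjusted p = 0.46). It was positive for all 5 pigment genes, with a median of 1.42, and negative for all 5 epithelial genes, with a median of -0.58. Without replicate 2 of the 3-month controls the values were 3.23 for Mlana and 1.13 for Dct, with adjusted p = 0.24 and 0.15. Without replicate 3 of the 12-month controls Mlana was at 4.65 and was called (adjusted p = 0.035).

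Between 3 and 12 months 1 epithelial gene fell in KO retinas, in a comparison that uses the same KO libraries as those above. This was Rpe65, averaging 9.32 ± 2.06 CPM at 12 months and 14.9 ± 3.19 CPM at 3 months (SD, n = 3 each), with a log2 fold change of -0.68 ± 0.17 (adjusted p = 0.033). It was the only gene of the 10 called by edgeR in that comparison, against 2.37% of all genes (1.54% higher and 0.832% lower). At an unadjusted p below 0.05 there were 5 of the 10, against 13.3% of all genes. Lrat was at -0.66 ± 0.19 (adjusted p = 0.073), Rgr at -0.67 ± 0.19 (adjusted p = 0.10) and Ttr at -0.63 ± 0.27 (adjusted p = 0.34). These 4 genes were lower in every 12-month KO library than in any 3-month KO library, against 11.5% of all genes. Mlana and Dct were higher in every 12-month KO library, against 10.7% of all genes, at 1.21 ± 0.55 and 0.53 ± 0.26 (adjusted p = 0.34 and 0.42). The call for Rpe65 was lost without replicate 1 or 2 of the 3-month KO (adjusted p = 0.18 and 0.20), without replicate 1 or 3 of the 12-month KO (0.051 and 0.17), and when only the 6 KO libraries were fitted (0.088). DESeq2 called Rpe65, Lrat and Rgr.

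In control retinas all 5 pigment genes were lower on average at 12 months than at 3 months. No gene of the 10 was called by edgeR, against 2.11% of all genes (1.4% higher and 0.71% lower). There were 4 that had an unadjusted p below 0.05 (Mlana, Tyr, Tyrp1 and Dct), against 12.5% of all genes, and DESeq2 called 2, Mlana and Dct (adjusted p = 0.0041 and 0.0496). The log2 fold changes of the 5 pigment genes had a median of -1.03, led by Mlana at -2.34 ± 0.60 (adjusted p = 0.051), Tyrp1 at -1.26 ± 0.40 (adjusted p = 0.13) and Dct at -0.98 ± 0.27 (adjusted p = 0.095). The epithelial genes had a median of -0.08, with Rpe65 at -0.11 ± 0.17 and Best1, on few counts, at 0.87 ± 0.47 (adjusted p = 0.48). Mlana, Tyr and Dct were lower in every 12-month control than in any 3-month control, against 8.29% of all genes, and 0 of the 10 were higher, against 9.21%. Without replicate 2 of the 3-month controls, Mlana was at -2.02, Dct at -0.60, Tyrp1 at -0.75 and Pmel at -0.10. Without replicate 3 of the 12-month controls, edgeR called 3 genes, Mlana, Tyrp1 and Dct.

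How much pigment epithelium each library carried was described by summing the 5 epithelial genes, with no test. The sum was 85.8 ± 16.8 CPM in 12-month KO, 109 ± 22.4 CPM in 12-month control, 135 ± 16.1 CPM in 3-month KO and 127 ± 29.8 CPM in 3-month control libraries (SD, n = 3 each), the last 110 CPM without replicate 2. It spanned 2.35-fold, between 68.3 CPM in replicate 3 of the 12-month KO and 161 CPM in replicate 2 of the 3-month controls. The sum is mostly Ttr and Rgr. With the 5 genes weighted equally, as a mean log2 deviation, the span was 1.83-fold, replicate 3 of the 12-month KO was again lowest, replicate 2 of the 3-month KO was highest, and replicate 2 of the 3-month controls had rank 4. The 12-month KO libraries, at 68.3 to 102 CPM, did not overlap the 3-month KO libraries, at 117 to 147 CPM, while KO and control overlapped at each age, as did the control groups at the 2 ages. Counted over all 10 genes, the lowest share of a library was 0.00952% (95% exact binomial interval 0.00916% to 0.00988%) in replicate 3 of the 12-month KO. The highest was 0.0197% (0.0192% to 0.0202%) in replicate 2 of the 3-month controls. These intervals cover counting error only and take each count as independent. They are too narrow if both mates of a fragment were counted. In these bulk libraries, fewer epithelial cells and less RNA per cell cannot be told apart. Rgr is also a gene of Müller glia, and the part of the sum that comes from these glia was not measured. A list of 18 other epithelial genes, described below, ordered the libraries differently. Its sum was 1038 ± 38.6 CPM in 12-month KO and 1009 ± 13.5 CPM in 3-month KO libraries. In mean log2 deviation, replicates 1 and 2 of the 12-month controls had ranks 11 and 12. With the 5 genes their ranks were 2 and 5. Replicate 2 of the 3-month KO ranked 2 (1 with the 5 genes), and replicate 3 of the 12-month KO ranked 10 (12 with the 5).

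The sum of the 5 pigment genes spanned more, 4.40-fold, between 9.15 CPM in replicate 2 of the 12-month controls and 40.2 CPM in replicate 2 of the 3-month controls. It was 22.8 ± 2.43 CPM in 12-month KO, 13.4 ± 5.53 CPM in 12-month control, 17.2 ± 2.81 CPM in 3-month KO and 27.1 ± 11.4 CPM in 3-month control libraries; the last was 20.6 CPM without replicate 2. The pigment counts were 20.8%, 24.7% and 37.5% of the epithelial counts in 12-month KO libraries, against 8.69%, 8.46% and 22.6% in 12-month controls. At 3 months they were 11.5%, 13.9% and 12.9% in KO libraries, against 18.5%, 25.0% and 19.0% in controls. The library with the least epithelial signal, replicate 3 of the 12-month KO, held the highest pigment share. That signal is the divisor of the share, so the share is not independent of it. This ratio was chosen after the values had been seen.

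**Figure D3:**
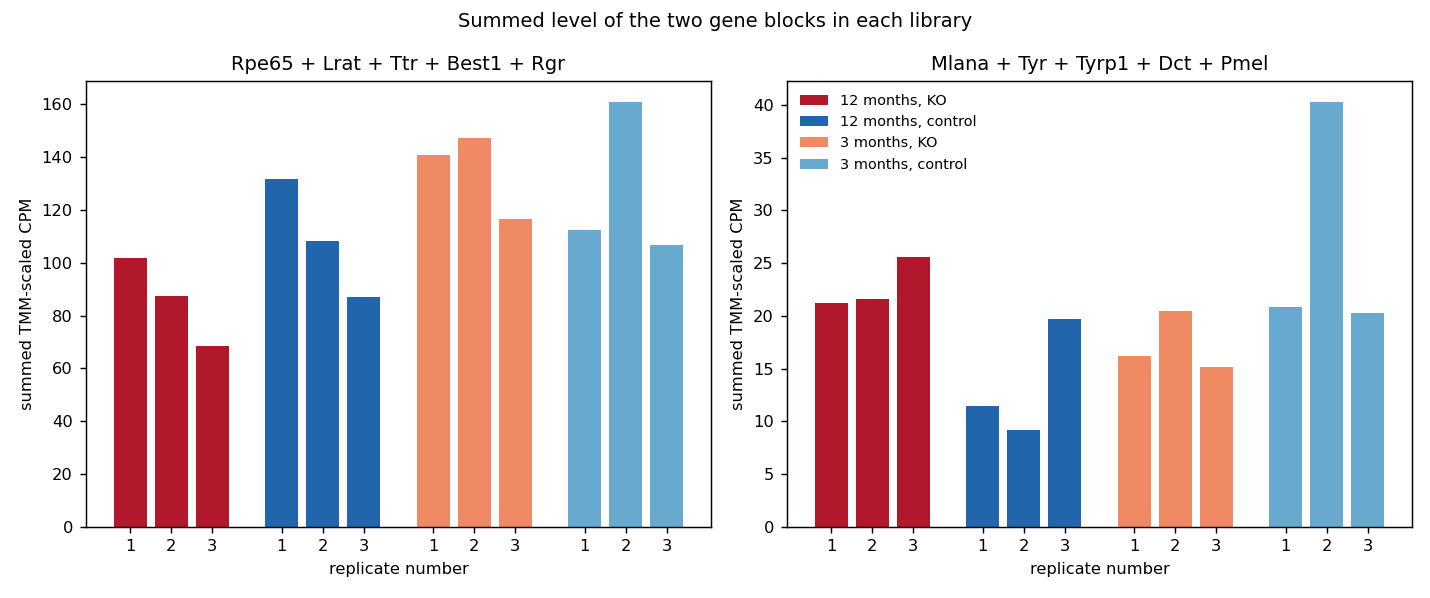
Summed TMM-scaled CPM (vertical axes, from 0) of the 5 epithelial genes (left) and of the 5 pigment genes (right), with 1 bar per library, grouped as 12-month KO, 12-month control, 3-month KO and 3-month control. The epithelial bars are lowest in replicate 3 of the 12-month KO (68.3 CPM), the pigment bars are lowest in replicates 1 and 2 of the 12-month controls, and replicate 2 of the 3-month controls is highest in both panels.

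Across the 12 libraries 8 of the 10 genes fell into 2 sets by Pearson's r, without Best1 and Tyr. All 45 pairs were compared on log2 CPM with permutation tests (100000 permutations, Benjamini-Hochberg over the 45). The permutations shuffled all 12 libraries and ignored their groups, so a group difference shared by 2 genes can also give a small p. Within the epithelial genes 6 of 10 pairs had a Pearson r with an adjusted p below 0.05, namely all pairs of Rpe65, Lrat, Ttr and Rgr, and Best1 had a negative r with each of them. Within the pigment genes 6 of 10 did, namely all pairs of Mlana, Tyrp1, Dct and Pmel. Between the sets 0 of 25 pairs did, with r between -0.44 and 0.28. By Spearman's rho 3, 1 and 0 pairs passed.

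Ttr and Rgr had r = 0.92 and rho = 0.94 (permutation p = 1e-05, the smallest these permutations can give, and 2e-05; adjusted p = 0.00045 and 0.0009), and r = 0.87 without the 2 libraries farthest from the median of Ttr. For Tyrp1 and Dct r was 0.89 and rho 0.73 (permutation p = 0.00033 and 0.0094; adjusted p = 0.0037 and 0.060), and r was 0.79 without the 2 farthest libraries. Mlana and Dct had r = 0.86 and rho = 0.89 (permutation p = 0.00023 and 0.00037; adjusted p = 0.0037 and 0.00555), and r = 0.81 without the 2 farthest. For other passing pairs r fell further: without the 2 farthest, r was 0.31 for Mlana and Pmel and 0.45 for Rpe65 and Ttr. After the 4 group means were subtracted, as a description of the spread within groups, r was 0.96 for Ttr and Rgr, 0.92 for Tyrp1 and Dct and 0.69 for Mlana and Dct. It was 0.42 for Rpe65 and Lrat, 0.48 for Rpe65 and Rgr and 0.49 for Mlana and Tyrp1. The median r within the epithelial set was then 0.45, against 0.72 before, and within the pigment set 0.59, against 0.74. Between the sets the median was then -0.08, with r from -0.65 for Ttr and Tyr to 0.57 for Lrat and Pmel. All 10 within-set pairs of each set were then positive, the Best1 pairs included, and libraries share their depth and scaling across genes.

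**Figure D4:**
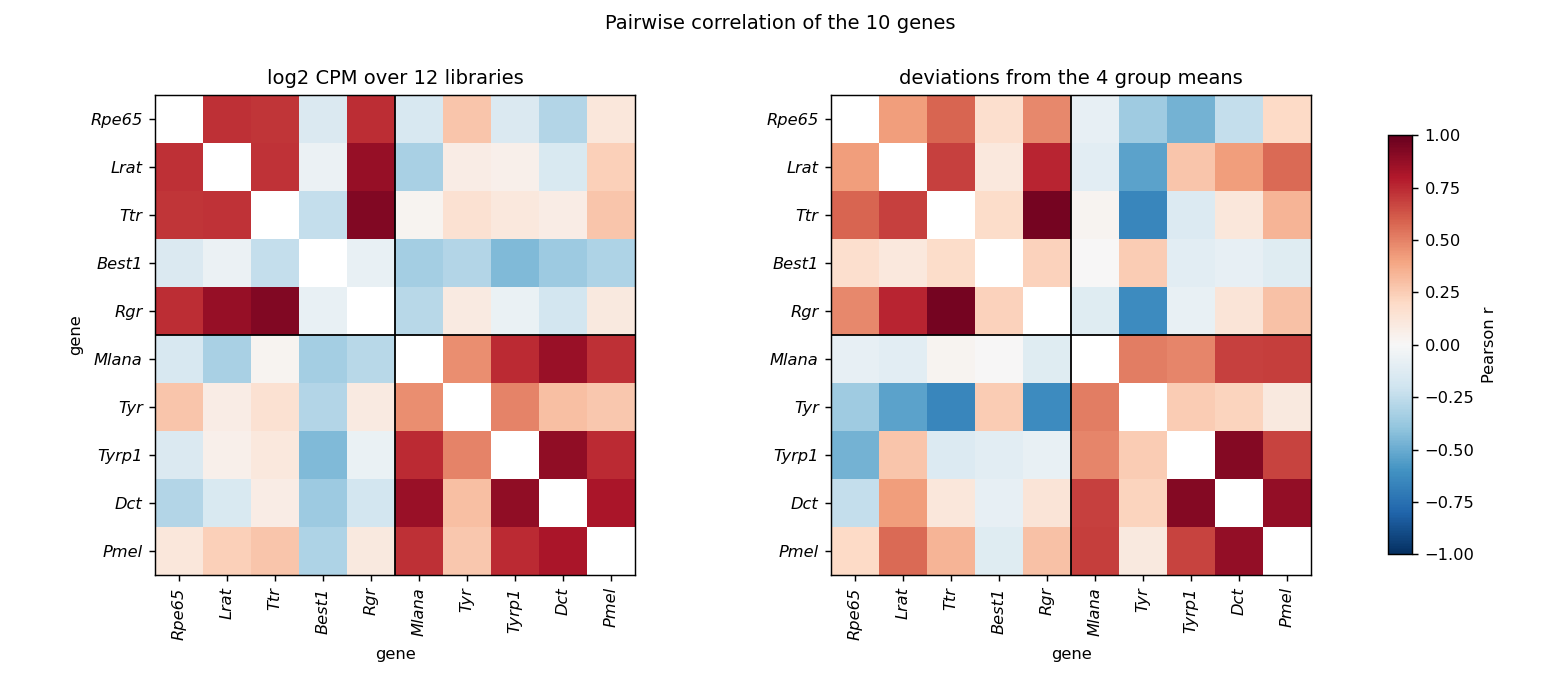
Pearson r between each pair of the 10 genes, from -1 (blue) to 1 (red), on log2 CPM over 12 libraries (left) and on deviations from the 4 group means (right); black lines separate epithelial from pigment genes. On the left the red squares among Rpe65, Lrat, Ttr and Rgr and among Mlana, Tyrp1, Dct and Pmel stand apart from the pale squares between the sets, whose r lies between -0.44 and 0.28; the Best1 and Tyr squares do not.

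The genes most like the 10 were ranked by r with their mean standardised log2 CPM, over the 12 libraries and 14079 genes with a mean of at least 1 CPM. The first 10 were Tmem161a (r = 0.94), Slc2a8, Rnaseh1, Moxd1, Cdh3, Ptgds, Pdlim1, Thbs4, Thbs3 and Slc7a5 (r = 0.85). With group means subtracted the order began with Dctpp1 (r = 0.95), Mad2l2, Fam3a, Rnaseh1, Tmem150a, Acaa2, Cpxm1, Anapc5, Tmem161a and 1700017B05Rik, so that 2 genes, Rnaseh1 and Tmem161a, were in both lists. Profiles of the 2 sets apart, chosen after the values had been seen, gave different neighbours. The epithelial set was nearest to Lrrc32 (r = 0.91), Myrf, Ccdc134, Lipa and, at rank 5, Stra6 (r = 0.81), the retinol-binding protein receptor of the epithelium. Its lactate transporter Slc16a8 had rank 18 and the 11-cis retinol dehydrogenase Rdh5 rank 43. Slc16a8 and Rdh5 were picked after the ranks had been seen. The ranks of most other epithelial genes listed below are not given, so these names do not describe that list. With group means subtracted the order was different: Abt1, Gm20257 and Coa3 came first, Stra6 had rank 532 and Lipa rank 1156. For the pigment set the nearest were Cavin2 (r = 0.92), Nhsl1, Myo19, Actg1 and the epithelial tight-junction gene Cldn19 (r = 0.86). The cystine transporter Slc7a11, which bears on pheomelanin and was picked in the same way, had rank 11 there, and Zic2, a ciliary epithelium gene, rank 36. With group means subtracted the melanosome glycoprotein Gpnmb came first (r = 0.95), although it had rank 307 over the 12 libraries, and Zic2 had rank 3 (r = 0.91). These correlations are over 12 libraries that share their groups and scaling, and they carry no p.

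Other genes of the epithelium, in a list of 18 (Rdh5, Rlbp1, Stra6, Slc16a8, Mertk and others), held 0 or 1 edgeR call in each comparison. Against control, 0 of 18 were called in KO at 12 months and 0 at 3 months by edgeR or DESeq2, with 1 and 2 at an unadjusted p below 0.05, and median log2 fold changes of 0.02 and 0.06. With age in KO 13 of the 18 had negative log2 fold changes, with a median of -0.10, and 6 had an unadjusted p below 0.05, against 13.3% of all genes. Of these 1 fell by the adjusted p, against 0.832% of all genes. This was Slc16a8, at 10.2 ± 1.02 CPM at 12 months and 18.4 ± 2.20 CPM at 3 months (SD, n = 3 each). Its log2 fold change was -0.85 ± 0.18 (edgeR, adjusted p = 0.019). That call was lost without replicate 1 or 2 of the 3-month KO (adjusted p = 0.10 and 0.066) and without replicate 1 or 3 of the 12-month KO (0.080 and 0.10). In controls Slc16a8 was at -0.57 ± 0.18 (adjusted p = 0.14). There 0 of 18 were called by edgeR, 8 had an unadjusted p below 0.05, against 12.5% of all genes, 12 of the 18 were negative, with a median of -0.04, and DESeq2 called Rdh5 and Enpp2.

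Genes of melanosome building and pigment transport, 21 tested of 22 listed, gave 0 calls in any of the 5 comparisons by edgeR or DESeq2, with 1 or 2 at an unadjusted p below 0.05 in each. Their most abundant members, the motor Myo5a and Hps4, are widely expressed. With age in KO all 5 tested genes of the melanocyte lineage had negative log2 fold changes, with a median of -0.15. That list shares Mitf with the wider epithelial list above, and how much of its signal comes from melanocytes was not tested. By the adjusted p 1 of them fell, against 0.832% of all genes. This was Mc1r, the melanocortin receptor, which averaged 3.92 ± 0.433 CPM at 12 months and 6.78 ± 0.559 CPM at 3 months (SD, n = 3 each). Its log2 fold change was -0.79 ± 0.16 (edgeR, adjusted p = 0.0094), and the call was lost without replicate 2 of the 3-month KO (0.066) or replicate 3 of the 12-month KO (0.057). Pax3, a lineage factor of melanocytes, was at 0 in 11 of the 12 libraries.

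Genes of neighbouring tissues moved with age in part. Of 7 tested genes of choroid and sclera, Plvap, the diaphragm protein of fenestrated vessels such as those of the choroid, rose with age in KO, to 22.3 ± 1.57 CPM at 12 months against 13.6 ± 0.468 CPM at 3 months. It rose in controls too, to 20.8 ± 1.65 CPM at 12 months against 13.5 ± 0.697 CPM at 3 months (SD, n = 3 each). The log2 fold changes were 0.72 ± 0.10 and 0.63 ± 0.10 (edgeR, adjusted p = 0.00041 and 0.0012). In controls 5 of the 7 tested genes had negative log2 fold changes with age, with a median of -0.22, and in KO 2 of 7 did, with a median of 0.13. The collagen-binding proteoglycan Dcn was called higher with age in KO at 1.46 ± 0.38 (adjusted p = 0.049), a call kept on leaving out only replicate 2 of the 3-month controls or replicate 3 of the 12-month KO and lost without any other library. Of 4 tested genes of the ciliary epithelium 0 were called in any comparison by edgeR or DESeq2, and 1, Zic2, had an unadjusted p below 0.05 for KO against control at 12 months. The 9 choroid and sclera genes summed to 52.0 ± 1.18 CPM in 12-month KO, 48.2 ± 1.64 CPM in 12-month control, 41.7 ± 2.92 CPM in 3-month KO and 42.5 ± 6.70 CPM in 3-month control libraries, with the corneal and scleral gene Kera at 0. By the group means above, Plvap rose by more than this sum in controls and made up most of its rise in KO. The part of choroid and sclera in the values of the 10 genes was not tested.

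**Figure D5:**
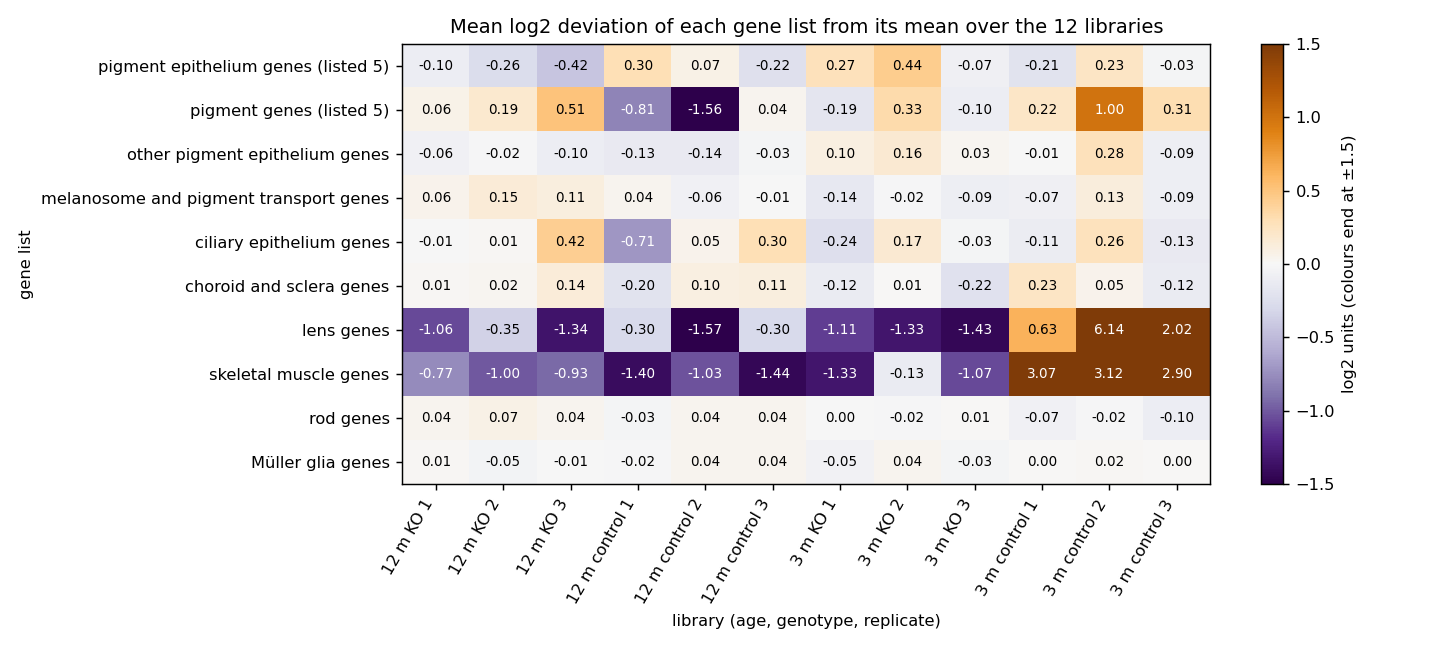
Mean log2 deviation of each gene list (rows) from its mean over the 12 libraries, by library (columns), with the value printed in each cell and colours ending at ±1.5. The pigment genes are low in replicates 1 and 2 of the 12-month controls, the ciliary epithelium genes are at -0.71 in replicate 1 of those controls and at 0.42 in replicate 3 of the 12-month KO, and the rod and Müller glia rows are nearly flat.

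The authors' deposited table for 12 months, whose column meanings were inferred, gave the same sign as the counts for all 10 genes. In the authors' deposited table Dct was the only one of the 10 with an adjusted p below 0.05, at a log2 fold change of 0.39 (adjusted p = 0.027), among 109 genes so called. The authors' deposited table gave Mlana 0.21 (adjusted p = 0.097) and Rgr -0.29 (adjusted p = 0.17), both closer to 0 than the values fitted here.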

How the data were processed

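Whole-retina RNA was made into stranded poly(A) libraries, per the labels' protocols. The submitters' processing notes name HISAT2 2.1.0, featureCounts 1.6.4, DESeq2 1.22.1 and the build GRCm38. The authors deposited raw counts per Entrez ID for each library. Neither the strand setting nor the treatment of multimapping reads is stated, which leaves overlapping and antisense genes uncertain. Among counts of 1 to 20, 60.7% to 70.2% were even in each library (48.6% to 50.7% among higher counts), as when both mates of a fragment are counted; halved counts were therefore tried. A header-less 12-month table deposited by the authors was read as a mean normalized signal, a log2 fold change with its error, a score (their quotient), a p-value and its adjusted form.

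The 10 genes and the other lists were chosen with earlier results of these data known. Counts were fitted with edgeR 4.0.16 (limma 3.58.1, R 4.3.3): filterByExpr, TMM factors, robust glmQLFit with 1 coefficient per group over all 12 libraries, glmQLFTest, and Benjamini-Hochberg adjustment over 16475 genes with a threshold of 0.05. RefSeq named 25275 IDs; unnamed IDs held at most 0.284% of a library's counts. The log2 CPM used a prior count of 2. The fit was tested on simulated data. Alternatives were RLE factors, DESeq2 1.42.0, no filter, the replicate number as a block, halved counts, only the libraries compared, leaving out each library and, for sums, unscaled totals and library sizes without lens, cornea, muscle and blood genes. The text names all 10 genes, from the other lists those past the threshold (up to 4) or the 2 most abundant where they matter, and the 10 nearest genes by r; other names were chosen after their values were seen. Replicates differed by 3.52 to 43.1 times the counting variance, so none was a copy.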

Additional observations from a re-analysis of the deposited data

Results flagged for a closer look

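The difference between KO and control ran in opposite directions at the 2 ages for Mlana and Dct. In each, every KO library lay above every control at 12 months and every KO library lay below every control at 3 months. Of all tested genes, 8.3% did the former and 7.65% the latter. The share of all genes that did both was not computed. The 12-month log2 fold change minus the 3-month one was 3.55 for Mlana and 1.51 for Dct. That difference was tested in the edgeR fit and did not pass (adjusted p = 0.21 and 0.46 over all genes tested), while DESeq2 gave adjusted p = 0.0087 for Mlana and 0.17 for Dct. Leaving out each library gave 2.97 to 4.65 for Mlana and 1.13 to 1.82 for Dct.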

How the results depend on the processing

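Of the 10 genes, the number called for KO against control at 12 months was 0, and 1 with DESeq2; leaving out each library gave 0 to 1. At 3 months it was 0 under every alternative run. For 12 against 3 months in KO it was 1, against 3 with DESeq2, 3 with the replicate block, 3 with only the libraries compared (Lrat, Rgr and Dct) and 2 with no filter on low counts; leaving out each library gave 0 to 3. In control it was 0, against 1 with RLE factors, 2 with DESeq2, 1 with no filter and 1 with halved counts, and 0 to 3 on leaving out each library. For the difference between ages it was 0, against 1 with DESeq2, and 0 to 1 on leaving out each library. Genes called in all went between 13 and 166 for KO against control at 12 months (35 as reported), the most without replicate 2 of the 3-month controls. At 3 months they went between 21 and 63 (37 as reported). With age they went between 187 and 717 in KO (390 as reported) and between 198 and 574 in control (347 as reported). For the difference between ages they went between 14 and 44 (21 as reported). The counts among the 10 genes were not set against the share of all genes called in each alternative.

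Signs of log2 fold changes turned only on leaving out a library. The ranges were -0.22 to 0.59 for Tyr at 12 months; -0.20 to 0.18 for Ttr, -0.12 to 0.68 for Best1, -0.15 to 0.23 for Tyr, -0.70 to 0.026 for Tyrp1 and -0.63 to 0.29 for Pmel at 3 months; -0.17 to 0.38 for Tyrp1 and -0.13 to 0.34 for Pmel with age in KO; -0.10 to 0.27 for Lrat and -0.22 to 0.14 for Rgr with age in control; and -0.46 to 0.018 for Ttr and -0.27 to 0.54 for Tyr for the difference between ages. The cause was not tested.

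Same-numbered libraries did not deviate together (12 pairs, r between -0.08 and 0.04), so the numbers were not taken as pairs. The block with the replicate number added Lrat and Rgr to Rpe65 in the KO age comparison. Other scalings moved the mean summed CPM of a group by less than 1 SD. Without replicate 3 the 12-month control mean of the pigment sum was 10.3 CPM, against 13.4 CPM with it, and without replicate 2 the 3-month control mean was 20.6 CPM, against 27.1 CPM. Best1, Tyr and Mlana rest on few reads.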
